A study of Mus musculus with 12 samples.

Results

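Tfap2d-positive excitatory nuclei were followed in single-nucleus RNA sequencing of the mouse cortex at postnatal day 21 (P21). A nucleus was taken when it held at least 2 UMIs (unique molecular identifiers, each a counted transcript) of Tfap2d and at least 1 UMI of the vesicular glutamate transporters Slc17a7 or Slc17a6, with no UMI of the GABA synthesis genes Gad1 or Gad2. Nuclei with more than 12000 UMIs or more than 1% mitochondrial UMIs were left out. The rule found 163 nuclei among 25618 excitatory nuclei, 71914 nuclei within the limits and 78743 barcodes in all. They were 0.636% of excitatory nuclei, with an exact binomial 95% interval of 0.543 to 0.741% that covers counting error only. The nuclei were thus chosen by their measured UMIs of Tfap2d, Slc17a7, Slc17a6, Gad1 and Gad2, and the levels of these 5 genes are given below as a description, with no p.

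Tfap2d encodes AP-2 delta, a member of the AP-2 family of transcription factors, which bind GC-rich DNA as dimers and act in the patterning of ectoderm and neurons. AP-2 delta is best known in the midbrain and retina, and in the forebrain its transcript marks restricted groups of glutamatergic neurons. Slc17a7 and Slc17a6 load glutamate into synaptic vesicles and so mark excitatory neurons.

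The series compared wild-type (WT) mice with mice heterozygous (Het) for MYT1L S710fsX, a frameshift allele of the neuronal zinc finger factor Myt1l carried in the germline on a C57BL/6 background. Here 6 WT and 6 Het animals were used, with 3 males and 3 females of each genotype. Animals were told apart by the barcodes of separate wells and then processed as a pool. Every animal, WT included, came from WT by Het breeding and had received AAV9 vectors in the ventricles as a newborn, encoding a hyPB transposase and an H2b-tdT-SRT reporter whose transcript is counted as TDTOMATO. The labels give the tissue as cortex, and the study's methods also speak of prefrontal cortex. No barcode was found in more than 1 animal.

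Over all Tfap2d-positive nuclei, no marker fixed for the amygdala was called higher, and the nuclei are therefore named by their rule and not as amygdalar. Of 8 markers of the lateral and basolateral amygdala, 7 could be tested against other excitatory nuclei, none was called higher and Fezf2 was called lower. The summed level of these 8 genes was 669 to 1993 CPM (UMIs scaled to the same total in every sum) in the Tfap2d-positive nuclei of the 12 animals, with a median of 1394, and 833 to 986 CPM in the other excitatory nuclei, with a median of 888. Zbtb20 and Cdh13, which carried most of that sum, were higher by 0.85 ± 0.22 (SE) and 0.65 ± 0.10 on the log2 scale, short of the doubling asked of a call. Of 9 markers of the cortical and medial amygdala, Lhx9, Barhl2, Otp, Sim1, Ebf3 and Tfap2c had under 3 UMIs in all 163 nuclei together, and none of the 3 that could be tested was called, although the summed level was 158 to 801 CPM with a median of 463 against 240 to 292 CPM. Neither of the 2 posterior basolateral markers tested was called. The sums differed between the clusters described below. In the Tfap2d-positive nuclei of cluster 14 the lateral and basolateral sum was 1915 CPM and the cortical and medial sum 914 CPM, of which Meis2, a homeodomain factor, gave 907 CPM. The cortical and medial sum was 327 CPM in cluster 11 and 108 CPM in cluster 22, and the lateral and basolateral sum 1054 and 1380 CPM. These sums by cluster were not tested. Single genes were set against nuclei of the same cluster without Tfap2d, as described below. There Zbtb20 was called higher in cluster 14 (1.47 ± 0.19) and cluster 11 (1.09 ± 0.24). Cdh13 was called lower in cluster 11 (-2.41 ± 0.45).

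A nucleus held up to 8 Tfap2d UMIs. Just inside the threshold, 88 nuclei had 2 UMIs, 43 had 3 and 32 had 4 or more. Just outside it, 425 excitatory nuclei had 1 UMI and 24980 had none. In nuclei of other types the gene was rarer. A Tfap2d UMI was found in 2.30% of excitatory nuclei (median depth 6100 UMIs) and in 0.229% of 9188 inhibitory nuclei (median depth 4897 UMIs), none of which held 2. Among 2025 oligodendrocyte nuclei the share was 0.148%. After each nucleus was thinned to 1500 UMIs, 0.789% of excitatory and 0.0871% of inhibitory nuclei kept a Tfap2d UMI. Of 300 nuclei of any type with at least 2 Tfap2d UMIs, 129 had neither a transporter nor a Gad UMI and 8 had a Gad UMI. The other 4 AP-2 genes were almost silent in the Tfap2d-positive nuclei: Tfap2b and Tfap2e were each seen as a fraction of a UMI in 1 nucleus, and Tfap2a and Tfap2c in none.

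The Tfap2d-positive nuclei were somewhat deeper than their neighbours, with a median of 7198 UMIs and 2697 genes against 6094 UMIs and 2387 genes in other excitatory nuclei. Deeper nuclei reach 2 UMIs of a gene more easily, and the part of this in the results was not tested. Slc17a7 alone was seen in 122 of the 163, Slc17a6 alone in 21 and both in 20. The 163 nuclei gave 1185157 UMIs, so that 1 UMI in their sum is 0.844 CPM. Scrublet, a doublet score, placed 4 of them (2.45%) among the highest 5% of their animal, against 3.43% of all excitatory nuclei. An animal gave 4 to 21 such nuclei.

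The excitatory nuclei were clustered without the 5 genes of the rule, which gave 49 clusters. The Tfap2d-positive nuclei lay in 19 of them, and 129 (79.1%) lay in 3 clusters that held 7.51% of excitatory nuclei. Cluster 14 held 54, cluster 22 held 43 and cluster 11 held 32, while no other cluster held more than 5. The remaining 34 were spread over 16 clusters. Within each of the 3 clusters Tfap2d-positive nuclei were a minority, at 7.41% of the 729 nuclei of cluster 14, 10.8% of the 398 of cluster 22 and 4.01% of the 798 of cluster 11. The share of nuclei in these clusters rose with the Tfap2d count, from 6.31% of nuclei with no Tfap2d UMI to 51.1% with 1, 73.9% with 2, 79.1% with 3 and 93.8% with 4 or more. Since the clusters were picked for holding many Tfap2d-positive nuclei, this is a description.

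**Figure D1:**
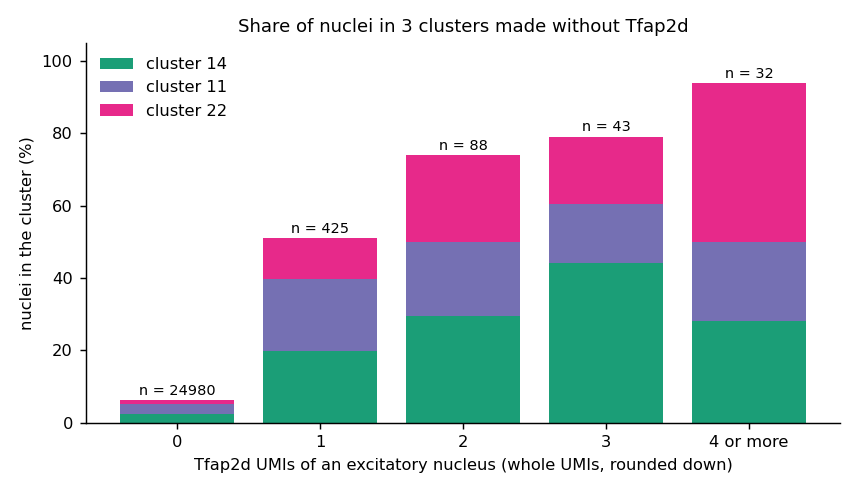
Share (%) of excitatory nuclei that lay in clusters 14, 11 and 22, stacked, by the number of Tfap2d UMIs in the nucleus (x axis), with the number of nuclei above each bar. The stacked share rises from 6.31% at 0 UMIs to 93.8% at 4 or more, and each of the 3 clusters takes part at every count from 1 upward.

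The clusters were led by different genes. Abi3bp, an extracellular matrix protein, led cluster 14 at 566 CPM against 17.3 CPM in the other excitatory nuclei, followed by the heparan sulfate enzyme Ndst4, the zinc finger gene Zfp536, the RNA editing family gene Adarb2, which is on the inhibitory list, and the BMP receptor Bmpr1b. Cluster 11 was led by the transcription factor Npas3, the synaptic release gene Unc13c and the cadherin Dchs2, and it shared Abi3bp with cluster 14. Neither was named. Cluster 22 was led by the collagen Col11a1, the kappa opioid receptor Oprk1 and the GDNF receptor Gfra1. It is called claustrum and endopiriform Car3-type-like, since Oprk1 and Nr4a2 of that fixed marker list were among its 10 leading genes. Car3 itself was not among them.

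The Tfap2d-positive nuclei were split by the same genes. Since these genes led clusters that were built from the same nuclei, this is a description. Over all 163 nuclei, 80 held an Abi3bp UMI and 28 an Oprk1 UMI, but only 1 held both. Of 65 nuclei with Ndst4, 54 also held Abi3bp. Of 46 nuclei with Col11a1, 33 also held the nuclear receptor Nr4a2 and 10 held Abi3bp. Nr4a2 was at 296 CPM in the Tfap2d-positive nuclei of cluster 22, 11.2 CPM in those of cluster 14 and 0 in those of cluster 11. Tfap2d itself was at 430, 465.9 and 416 CPM in those of clusters 14, 11 and 22 and at 281 CPM in those elsewhere.

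The next comparison asked which genes distinguish the Tfap2d-positive nuclei from the other excitatory nuclei of the same animals. Counts were summed per animal, giving 2 sums for each of 12 animals, and fitted with edgeR's quasi-likelihood test with the animal as a block. A gene was called when it changed by at least a doubling and its p, adjusted after Benjamini and Hochberg, was under 0.05. Of 11837 genes tested, 423 were called (3.57%), 261 higher (2.2%) and 162 lower (1.37%), and the median log2 difference of all genes was 0.04. With TMM factors over all filtered genes the balance turned, with 171 higher and 345 lower and a median of -0.21. For 91 genes (0.769%) the 12 sums of Tfap2d-positive nuclei did not overlap with the 12 sums of the others. The mix of clusters differed between animals, and several of the genes below are high in 1 cluster only.

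Abi3bp had the largest difference among genes seen in at least 20% of the Tfap2d-positive nuclei. It ranged from 0 to 1326 CPM over the animals with a median of 424, against 18.9 to 39.2 CPM with a median of 27.8 in other excitatory nuclei, a log2 difference of 4.00 ± 0.46 (edgeR adjusted p = 0.000101). It was higher in 10 of 12 animals, and the groups overlapped. The exceptions were WT male 1 at 0 CPM and Het female 3 at 16.6 CPM. By cluster, Abi3bp was at 1420 CPM in Tfap2d-positive nuclei of cluster 14, 589 in cluster 11 and 12.1 in cluster 22. Ndst4 (log2 difference 2.52 ± 0.51) and Bmpr1b (2.35 ± 0.41) were likewise concentrated in cluster 14, at 1130 CPM each. In cluster 14 nuclei without a Tfap2d UMI, Abi3bp, Ndst4 and Bmpr1b were at 440, 793 and 471 CPM. Within that cluster the differences of Abi3bp and Bmpr1b were called and that of Ndst4 was not.

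A second set of high genes belonged to cluster 22. Cntnap3, a contactin-associated adhesion protein, was at 9.66 to 199 CPM with a median of 93.0, against 4.66 to 15.0 CPM with a median of 7.28, and was higher in 12 of 12 animals (log2 difference 3.40 ± 0.23, edgeR adjusted p = 2.34e-43). Col11a1 (3.12 ± 0.39) was at 756 CPM and Gfra1 (2.80 ± 0.42) at 603 CPM in the Tfap2d-positive nuclei of cluster 22, and both were at 0 UMIs in those of cluster 11. Oprk1 was seen in 17.2% of the Tfap2d-positive nuclei against 1.35% of the others (log2 difference 4.35 ± 0.24, edgeR adjusted p = 3.65e-67). Its level was 0 to 221 CPM over the animals with a median of 38.5, against 2.15 to 7.69 CPM, higher in 11 of 12 animals. Among the Tfap2d-positive nuclei of the 3 clusters, all Oprk1 came from cluster 22.

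Tll1, Angpt1 and Unc5c were high in the Tfap2d-positive nuclei of all 3 clusters, and Lmo3 in those of clusters 14 and 11. Tll1, a metalloprotease that processes collagens and BMP antagonists, was at 20.6 to 277 CPM with a median of 120, against 8.61 to 16.5 CPM with a median of 12.2, and the groups did not overlap (3.39 ± 0.20, edgeR adjusted p = 2.01e-59). By cluster it was at 205, 155 and 148 CPM in clusters 14, 11 and 22. In nuclei of these clusters without a Tfap2d UMI it was at 57.5, 41.8 and 96.4 CPM. Tll1 was not among the genes tested within clusters. Angpt1, the angiopoietin ligand, was also separate, at 38.3 to 185 against 13.6 to 27.2 CPM (2.53 ± 0.20). In clusters 14, 11 and 22 it was at 98.4, 83.4 and 193 CPM, against 23.6, 37.6 and 91.1 CPM without a Tfap2d UMI. The netrin receptor Unc5c was seen in 93.9% of the Tfap2d-positive nuclei, at 699 to 2139 CPM with a median of 1353 against 379 to 666 CPM with a median of 469, again without overlap (1.501 ± 0.09, edgeR adjusted p = 5.68e-60). In nuclei of clusters 14, 11 and 22 without a Tfap2d UMI, Unc5c was at 930, 714 and 2001 CPM. The Tfap2d-positive nuclei there were at 1597, 1447 and 1663 CPM. The log2 differences were 0.61, 0.93 and -0.30, with edgeR adjusted p of 0.0361, 0.0492 and 0.574. None was called, and those of clusters 14 and 11 fell short of a doubling. The LIM-only factor Lmo3 did not overlap either, at 108 to 851 against 61.2 to 83.4 CPM (2.25 ± 0.12), although it was at 42.2 CPM in cluster 22 and 952 CPM in cluster 11.

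The remaining genes of the 20 highest were Emid1, C130073E24Rik, Gm45323, Gm45455, Gm45341, Vegfc, Pard3b, Grin3a, Fign, Rftn1 and Htr2c, with log2 differences between 2.33 and 3.19. Of these, 4 are long intergenic noncoding RNAs of the same stretch of chromosome 8, on the minus strand (mm10). C130073E24Rik lies at chr8:50743291-50916997, Gm45341 at chr8:50117745-50517889, Gm45455 at chr8:50201613-50517680 and Gm45323 at chr8:49959483-50013384. Gm45341 and Gm45455 overlap on the same strand, so how reads were split between them is uncertain. C130073E24Rik was at 33.2 to 405 CPM with a median of 254, against 20.9 to 37.9 CPM with a median of 30.5, and was higher in 12 of 12 animals (2.92 ± 0.18).

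**Figure D2:**
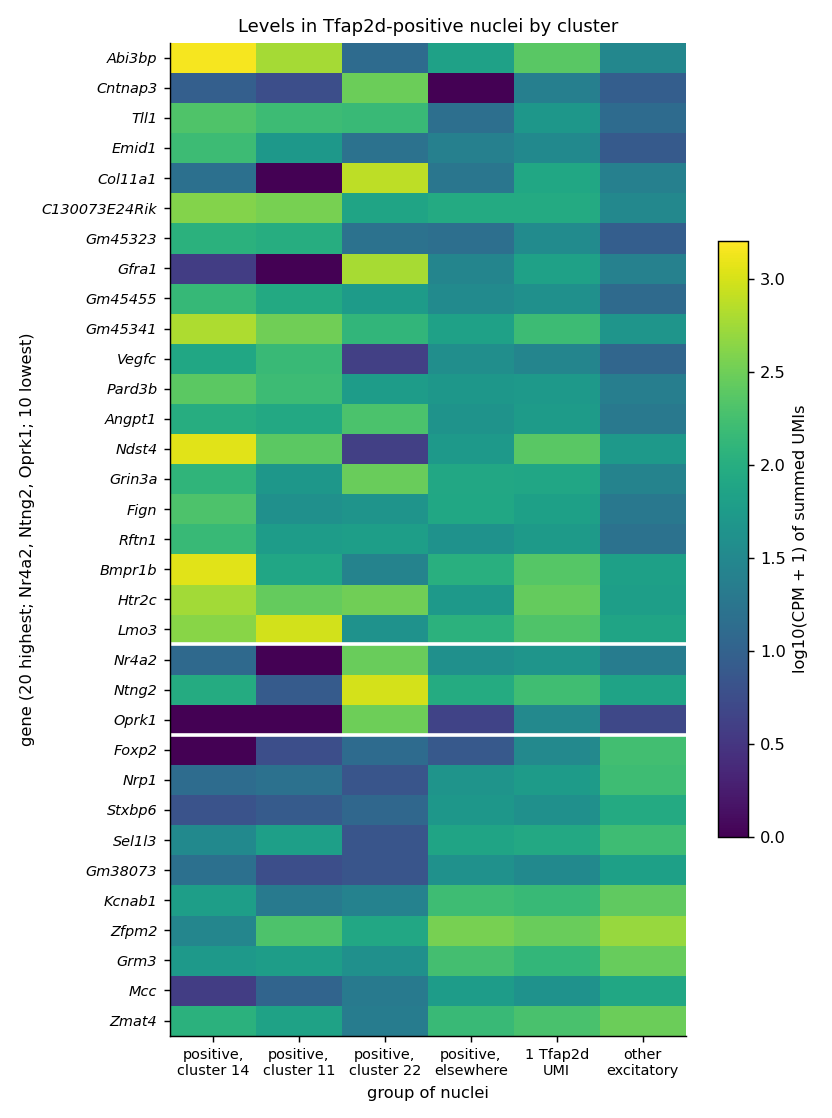
Level, as log10(CPM + 1) of summed UMIs, of the 20 highest genes, of Nr4a2, Ntng2 and Oprk1, and of the 10 lowest genes (rows) in Tfap2d-positive nuclei by cluster, in excitatory nuclei with 1 Tfap2d UMI and in the other excitatory nuclei (columns). Abi3bp reaches 1420 CPM in cluster 14 and 12.1 CPM in cluster 22, Col11a1 756 CPM in cluster 22 and 0 in cluster 11, and Foxp2 stays low in every column of Tfap2d-positive nuclei.

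Several of the lowest genes were low in all 3 clusters, also in their nuclei without Tfap2d. Foxp2, a forkhead factor of layer 6 corticothalamic neurons, was at 0 to 19.1 CPM with a median of 0, against 98.1 to 225 CPM with a median of 169, without overlap (log2 difference -4.76 ± 0.29, edgeR adjusted p = 9.17e-57), and 7 animals had no Foxp2 UMI in their Tfap2d-positive nuclei. In nuclei of clusters 14, 11 and 22 without a Tfap2d UMI, Foxp2 was at 12.9, 17.0 and 11.5 CPM. The semaphorin and VEGF receptor Nrp1 was at 0 to 54.8 CPM with a median of 9.97, against 118 to 182 CPM (-3.10 ± 0.23). Stxbp6, Sel1l3, Gm38073, Mcc, Zmat4 and the potassium channel subunit Kcnab1 did not overlap either, with log2 differences from -2.29 to -1.76. Zfpm2 and the metabotropic receptor Grm3 were lower by a similar amount but overlapped. Fezf2, the selector of subcerebral projection neurons, had no UMI in any Tfap2d-positive nucleus, which allows up to 2.53 CPM, against 8.45 CPM in other excitatory nuclei, at least 3.34-fold lower.

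Among 44 pallial transcription factors, 38 were tested, of which Lmo3, Id2, Nr4a2 and Zfhx4 were higher and Fezf2, Foxp2, Zfpm2, Nfix, Tshz2, Nfib and Foxp1 lower, with a list median of 0.00 against 0.04 over all genes tested. Of all genes tested, 2.2% were called higher and 1.37% lower. Zfhx4, a homeodomain zinc finger factor, was seen in 63.2% of the Tfap2d-positive nuclei and 19.7% of the others (1.95 ± 0.14). Nfib and Nfix, nuclear factor I genes of glial and late neuronal development, fell by 1.499 and 1.69 on the log2 scale. Tbr1 was higher by 0.85 ± 0.30 (edgeR adjusted p = 0.0496), short of a doubling.

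Receptors split both ways. Over all genes tested 3.57% were called. Of 32 peptide and monoamine receptors tested, Oprk1, the serotonin receptors Htr2c and Htr2a, the cannabinoid receptor Cnr1 and the nicotinic subunit Chrna7 were higher, and Trhr, the serotonin receptor Htr4, the adrenergic receptor Adra1a, the CRH receptor Crhr1 and the cholecystokinin receptor Cckbr were lower, with a list median of 0.18. Htr2c was seen in 57.7% of the Tfap2d-positive nuclei against 12.4% of the others (2.33 ± 0.14), at 569, 279 and 316 CPM in clusters 14, 11 and 22. Trhr rests on 1 UMI in the Tfap2d-positive nuclei. Of 16 ionotropic glutamate receptors tested 1 was called, the NMDA receptor subunit Grin3a (2.47 ± 0.17), of 7 metabotropic ones 1, Grm3, and of 12 GABA-A subunits 1, Gabrg1, on 19 UMIs, and single calls in lists of this size are no result about the families. None of the 3 neuropeptides and none of the 13 activity-regulated genes that could be tested was called. Several of these calls ended when 1 animal was left out. Cnr1 fell short of a doubling without WT male 3 (0.87) or Het male 3, and Chrna7 without WT male 3 (0.90), WT male 1, Het male 1, Het female 2 or Het female 3. Cckbr was lost without Het male 1 (-0.93), Het male 2, Het male 3 or WT male 3. Crhr1 was lost on leaving out any 1 of WT male 1, 2 and 3, WT female 3, Het male 3 and Het female 3, Trhr on leaving out any 1 animal but WT female 3, and Adra1a (-1.49) and Gabrg1 (1.28) without WT male 3.

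Of 45 axon guidance genes tested, Ntng2, Sema6a, Unc5c, Nrp2 and Efnb2 were higher and Nrp1, Sema3e, Ephb2 and Ntng1 lower (list median 0.14), against 2.2% higher and 1.37% lower over all genes tested. The call of Efnb2 ended without Het female 2 (0.96) or WT male 1, as did that of Foxp1 above without WT male 1 or Het male 2 (-0.98). The membrane-anchored netrins differed in opposite directions, Ntng2 by 2.17 ± 0.12 and Ntng1 by -1.42 ± 0.16, as did the neuropilins, Nrp2 by 1.41 ± 0.17 and Nrp1 by -3.10 ± 0.23. Ntng2 came from cluster 22, at 993 CPM, and Nrp2 from clusters 14 and 11, at 188 and 252 CPM against 24.1 in cluster 22. Without a Tfap2d UMI, Ntng2 was at 907 CPM in cluster 22 and Nrp2 at 160 and 129 CPM in clusters 14 and 11. None of these differences within a cluster was called. Of 60 adhesion genes, Cdh4, Cntn5 and Cntnap5a were higher and Cdh12, Cdh18, Sdk2 and Cntnap4 lower (list median 0.12). Cntn5 was at 6476 CPM in Tfap2d-positive nuclei of cluster 11 and 127 in cluster 22. Of 34 potassium channel genes 1 was called, a share near the 3.57% of all genes tested. It was Dpp10, an auxiliary subunit of A-type channels, at 1337 to 6407 against 9567 to 11077 CPM without overlap (-1.55 ± 0.24).

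Of the claustrum and endopiriform markers Nr4a2, Synpr, Oprk1, Gnb4 and Car3, 4 were tested and all 4 were higher. Their sum was 144 to 796 CPM over the animals with a median of 468, against 113 to 145 CPM in other excitatory nuclei. It came from the nuclei in cluster 22, at 1409 CPM, with 103 CPM in cluster 14 and 46.9 CPM in cluster 11. Of the 4 piriform markers, Lmo3 and the channel Trpc6 were higher and Reln, an extracellular protein of superficial cells, was lower. Their sum was 284 to 882 CPM with a median of 391, against 130 to 203 CPM, without overlap, and it reached 1007 CPM in the Tfap2d-positive nuclei of cluster 11, 453 CPM in cluster 14 and 285 CPM in cluster 22. Among glial lists, Vcan of the oligodendrocyte precursor list was called higher. The sum of 5 oligodendrocyte markers was 0 to 419 CPM with a median of 40.1, against 65.5 to 115 CPM, and none was called. Slc32a1, Sst, Pvalb, Vip and Dlx6os1 of the inhibitory list had under 3 UMIs in all 163 nuclei. The sum of that list was nevertheless 0 to 353 CPM with a median of 178, against 76.1 to 120 CPM, and the only member tested, Adarb2, which also led cluster 14, was higher by 0.96 without a call. Of 24 genes the study names at P21, all tested, Cntn5 was higher and Grm3, Nfix and Etv5 were lower. For comparison, 3.57% of all genes tested were called.

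Nuclei with 1 Tfap2d UMI, which the rule leaves out, were compared with those under 1 in the same way, a comparison added after the data were seen. Of 12204 genes, 213 were called (1.75%). The values stood on the same side for the genes above, with log2 differences of 3.14 for Abi3bp, 1.49 for Cntnap3, 3.10 for Oprk1 and -2.48 for Foxp2, and Ntng1 was an exception at 0.04. The 2 comparisons share nearly all of their comparison nuclei.

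To ask what goes with Tfap2d among like nuclei, the Tfap2d-positive nuclei of a cluster were set against nuclei of the same cluster with no Tfap2d UMI, a comparison added after the data were seen. Median depths were close in cluster 14 (6571 and 6585 UMIs) and cluster 11 (6202 and 6267 UMIs), and less so in cluster 22 (8086 and 6623 UMIs). The clusters were built from the same genes, so that a cluster that holds several kinds of nuclei can give such differences. Calls were made with edgeR as above, over 11 animals in clusters 14 and 11 and 12 animals in cluster 22. Some animals gave only 1 Tfap2d-positive nucleus to a cluster. The smallest sums of Tfap2d-positive nuclei held 8535, 2794 and 2373 UMIs in clusters 14, 11 and 22, and the ranges below include them. In cluster 14, 76 of 2087 genes were called (3.64%), 31 higher and 45 lower. In cluster 11, 36 of 1641 were called (2.19%), 9 higher and 27 lower. In cluster 22, 0 of 1514 were called (0%), with 137 at an unadjusted p under 0.05, and DESeq2 also called 0, with 127 at an unadjusted p under 0.05.

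In cluster 14 the largest rise among the genes with the smallest p was that of C130073E24Rik, seen in 72.2% of the Tfap2d-positive nuclei and 18.1% of those without Tfap2d (2.31 ± 0.27, edgeR adjusted p = 1.1e-07). Nkain3, a sodium pump interacting protein, was at 594 to 2445 CPM over the animals against 102 to 503 CPM, without overlap (2.05 ± 0.20). The GABA-A subunit Gabrg3 was at 1472 to 4045 against 968 to 1371 CPM, also without overlap (1.18 ± 0.14). Alcam, a cell adhesion molecule of axon fascicles, was at 0 to 116 CPM with a median of 0, against 155 to 441 CPM, without overlap (-4.37 ± 0.42, edgeR adjusted p = 9.68e-10). The sorting receptor Sorcs3 (-2.69 ± 0.28), the calcium channel subunit Cacna2d3 (-3.06 ± 0.34) and the adhesion protein Kirrel3 (-1.48 ± 0.19) were lower without overlap.

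In cluster 11 the potassium channel Kcnh5 was at 351 to 2021 CPM against 210 to 357 CPM (1.62 ± 0.22, edgeR adjusted p = 5.02e-06), with Lmo3 (1.48 ± 0.27) and the muscarinic receptor Chrm3 (1.04 ± 0.23) also higher. Nfib was seen in 9.38% of the Tfap2d-positive nuclei and 52.4% of the others there (-2.57 ± 0.47), and the histone deacetylase Hdac9 was lower without overlap (-1.51 ± 0.27). The calls of clusters 14 and 11 had 14 genes in common, which are 18.4% of the calls of cluster 14 and 38.9% of those of cluster 11, and all 14 had the same direction. Zbtb20, Lhfp, Gabrg3, Gm45341, Sgk1, Chrm3 and Il1rapl2 were higher, and Rgs17, Trps1, Nebl, Nfib, Cntn3, Cacna2d3 and Sorcs3 were lower. In cluster 22, Oprk1 (0.98 ± 0.27) and Angpt1 (1.12 ± 0.29) had an edgeR adjusted p of 0.136. Whether the differences vary between clusters was not tested.

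**Figure D3:**
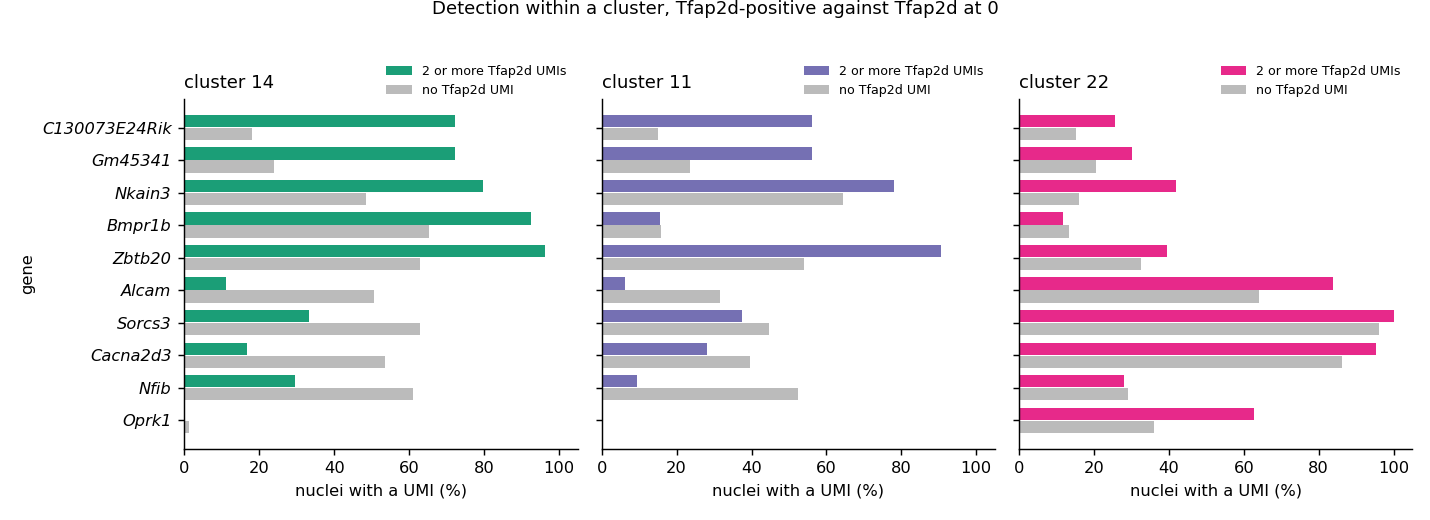
Share of nuclei with at least 1 UMI (%, x axis) for 10 genes (rows) in clusters 14, 11 and 22, with nuclei of 2 or more Tfap2d UMIs in colour and nuclei without a Tfap2d UMI in grey. C130073E24Rik stands at 72.2% against 18.1% in cluster 14, Alcam at 11.1% against 50.8%, and Oprk1 is absent from the Tfap2d-positive nuclei of clusters 14 and 11.

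Promoters were searched for the AP-2 consensus GCCNNNGGC, which reads the same on both strands, in the 250 bases before the annotated start of a gene (RefSeq, GRCm38.p6). The motif was present in 13.6% of 27025 genes of that table and in 20.8% of the 8455 tested genes that matched by symbol. Among matched called genes it was present in 19.0% of 184 higher and 25.5% of 98 lower genes. Of the 20 highest genes 12 matched, and Emid1 and Rftn1 held it. They are shown with the Tfap2d promoter itself, which holds none, with the motif in capitals. The Tfap2d window is chr1:19102772-19103021 on the plus strand, that of Emid1, an extracellular matrix gene, is chr11:5152231-5152480 on the minus strand, and that of Rftn1, a lipid raft protein gene, is chr17:50190498-50190747 on the minus strand. A match is no binding site.
Tfap2d: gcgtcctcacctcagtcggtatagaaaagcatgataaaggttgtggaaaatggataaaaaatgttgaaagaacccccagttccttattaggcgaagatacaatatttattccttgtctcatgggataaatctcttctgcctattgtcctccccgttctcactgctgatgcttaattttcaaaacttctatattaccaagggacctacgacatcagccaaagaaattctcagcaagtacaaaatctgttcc
Emid1: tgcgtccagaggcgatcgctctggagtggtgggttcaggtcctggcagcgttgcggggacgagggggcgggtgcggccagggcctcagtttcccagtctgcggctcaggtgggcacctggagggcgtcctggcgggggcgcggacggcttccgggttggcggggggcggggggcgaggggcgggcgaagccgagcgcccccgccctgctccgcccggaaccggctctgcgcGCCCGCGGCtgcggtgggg
Rftn1: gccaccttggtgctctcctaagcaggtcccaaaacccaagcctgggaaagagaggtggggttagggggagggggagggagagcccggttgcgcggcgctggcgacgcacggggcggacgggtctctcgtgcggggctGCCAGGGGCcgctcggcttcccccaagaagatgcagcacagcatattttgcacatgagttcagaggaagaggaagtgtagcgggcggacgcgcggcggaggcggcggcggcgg

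The transcript of the injected vector was at a lower level in the Tfap2d-positive nuclei. TDTOMATO was at 69.9 to 380 CPM over the 12 animals with a median of 107, against 178 to 377 CPM with a median of 279 in other excitatory nuclei. It was lower in 11 of 12 animals, by a mean of 146 ± 86.6 CPM (SD, n = 12), with p = 0.000977 in an exact two-sided sign-flip permutation test over 4096 flips, and WT male 2 was the exception. A TDTOMATO UMI was seen in 43.6% of the Tfap2d-positive nuclei and 59.4% of the others, and the share was lower in 10 of 12 animals (p = 0.00635, exact two-sided sign-flip permutation test), with WT male 2 and Het female 3 as exceptions. Among all nuclei of clusters 11, 22 and 14, with or without Tfap2d, it was seen in 46.5, 47.7 and 55.0%, and a difference from these nuclei was not tested.

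The genotype comparison began with Myt1l, the targeted gene. In Tfap2d-positive nuclei its sum was 846 to 1195 CPM in 4 WT animals and 771 to 1285 CPM in 6 Het animals, which overlapped (log2 Het over WT 0.08 ± 0.19, edgeR adjusted p = 0.999). In other excitatory nuclei of 6 and 6 animals it was 854 to 1073 CPM in WT and 984 to 1108 CPM in Het. The allele is a frameshift and not a deletion, and this level was not used as a check of the genotype labels. Between Tfap2d-positive and other excitatory nuclei the Myt1l difference was small and not called (0.02 ± 0.09, edgeR adjusted p = 0.965), and its paralogue St18 was seen in 2.45% of the Tfap2d-positive nuclei.

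The share of Tfap2d-positive nuclei differed between genotypes by less than the spread of the animals. It was 0.641 ± 0.218% of excitatory nuclei in WT (SD, n = 6) and 0.618 ± 0.0790% in Het (SD, n = 6), a difference of -0.0232 percentage points with p = 0.797 in an exact two-sided permutation test over 924 relabellings. The WT animals ranged from 0.299 to 0.967% with a median of 0.668%, and the Het animals, all within that range, from 0.542 to 0.749% with a median of 0.611%. The difference was -0.0218 points in males and -0.0246 points in females, where 3 against 3 animals allow no exact p below 0.1. Tfap2d summed over all excitatory nuclei was 5.32 ± 1.61 CPM in WT and 5.81 ± 0.941 CPM in Het (SD, n = 6 each). Within the Tfap2d-positive nuclei, which the rule chose on this gene, it was 357 ± 67.7 CPM in WT and 407 ± 33.5 CPM in Het. Clusters 11, 14 and 22 held 3.51, 2.63 and 1.72% of excitatory nuclei in WT and 2.88, 2.97 and 1.46% in Het, with exact permutation p of 0.275, 0.335 and 0.374.

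**Figure D4:**
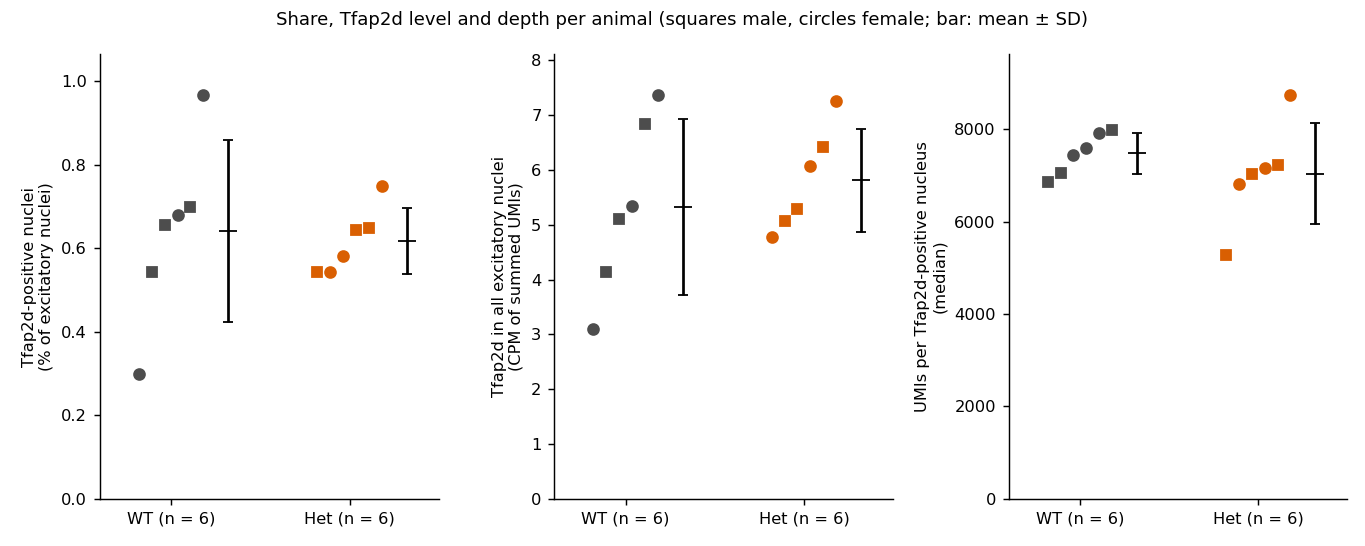
Share of Tfap2d-positive nuclei among excitatory nuclei (%), Tfap2d level in all excitatory nuclei (CPM) and median UMIs per Tfap2d-positive nucleus for each of 6 WT and 6 Het animals, with males as squares, females as circles and the mean ± SD as a bar. The Het shares, 0.542 to 0.749%, lie within the WT range of 0.299 to 0.967%.

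Gene expression in the Tfap2d-positive nuclei was compared between genotypes on sums per animal, using the 4 WT and 6 Het animals with at least 10 such nuclei. Of 1990 genes tested, 0 were called (0%) at an edgeR adjusted p under 0.05 and a log2 change over 0.2, with 81 at an unadjusted p under 0.05. DESeq2 also called 0, with 46 at an unadjusted p under 0.05. Het values lay above or below all WT values for 19 genes (0.955%). The sums held 80799 to 143087 UMIs, and the smallest change that this depth could show was not computed. Of the lists above, none of the 44 adhesion, 22 axon guidance, 21 potassium channel, 16 transcription factor, 14 ionotropic receptor or 15 study-named genes tested was called, with list medians between -0.03 and 0.08. The 4 metabotropic glutamate receptors and 7 GABA-A subunits tested had medians of -0.23 and -0.21, and the 7 peptide and monoamine receptors -0.06, again with none called, against 0.01 over all genes tested.

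The genes with the smallest p are given as values. They were picked by p, so a lack of overlap among them is no further support. Pspc1, a paraspeckle protein, was at 32.9 to 82.2 CPM in WT and 116 to 192 CPM in Het (log2 Het over WT 1.396 ± 0.30), and Spred2, an inhibitor of Ras signalling, at 30.8 to 121 CPM in WT and 152 to 216 CPM in Het (1.42 ± 0.31), both without overlap and with an edgeR adjusted p of 0.222. The RNA processing genes Cstf2 and Cnot1 and the endocytic gene Gapvd1 were higher in every Het than in every WT animal, by 0.89 to 1.09. In the 2 WT animals with fewer than 10 such nuclei, Pspc1 and Cnot1 reached 152 CPM and Cstf2 122 CPM, within the Het range, while Spred2 and Gapvd1 stayed below every Het animal. On the other side, the protease inhibitor Spink10 (-1.03 ± 0.29) and the DNA repair gene Slf1 (-0.85 ± 0.28) were lower in every Het than in every one of the 4 WT animals, which no longer held with the other 2 WT animals, at lowest 0 and 94.8 CPM, while the Eph receptor Epha7 (-0.91 ± 0.27), the sodium-activated potassium channel Kcnt2 (-0.58 ± 0.20) and Adamtsl1 (-1.88 ± 0.59) overlapped. All 8 had an edgeR adjusted p of 0.999.

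**Figure D5:**
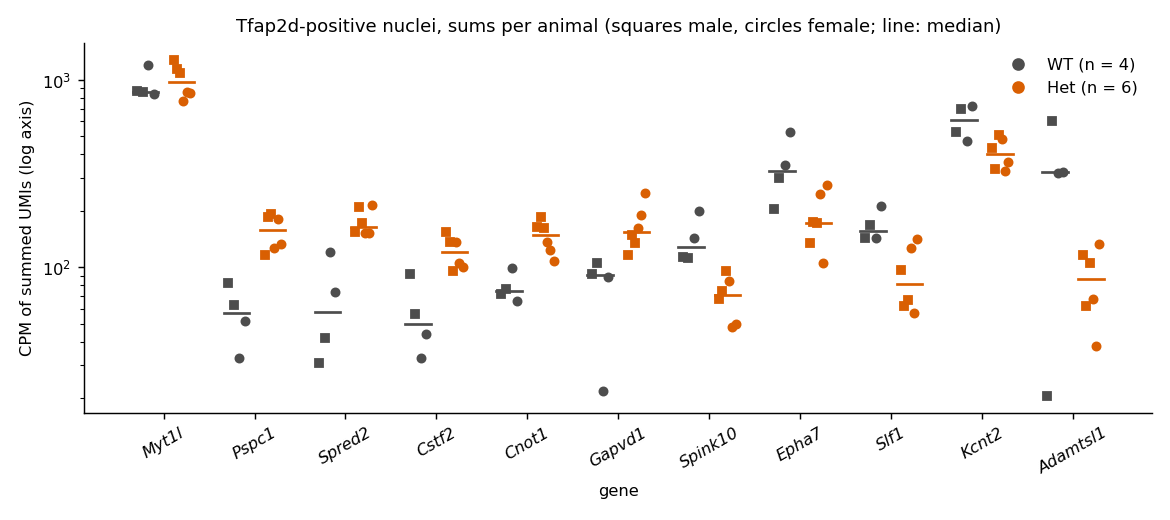
CPM (log axis) of Myt1l and, for Tfap2d-positive nuclei, of the 5 genes per direction that had the smallest p, each point 1 animal (4 WT, 6 Het; males squares, females circles) and each line the median. Pspc1 stands at 32.9 to 82.2 CPM in WT and 116 to 192 CPM in Het, Myt1l overlaps between genotypes, and none of these genes passed the adjusted threshold.

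All nuclei of clusters 14, 11 and 22, with or without Tfap2d, gave a deeper comparison over 6 WT and 6 Het animals, added after the data were seen. Each sum pooled the 3 clusters, whose shares of excitatory nuclei are given above by genotype. The part of their mix in the differences below was not tested. Of 7336 genes, 3 were called (0.0409%), with 522 at an unadjusted p under 0.05, and 19 genes (0.259%) did not overlap. Kcnt2 was at 433 to 609 CPM in WT with a median of 500 and at 340 to 412 CPM in Het with a median of 367 (-0.50 ± 0.09, edgeR adjusted p = 0.0215). Cnih3, an auxiliary subunit of AMPA receptors, was at 67.1 to 90.1 CPM in WT and 106 to 171 CPM in Het (0.60 ± 0.11, edgeR adjusted p = 0.0321). The anthrax toxin receptor gene Antxr1 was at 68.9 to 103 CPM in WT and 118 to 143 CPM in Het (0.52 ± 0.10, edgeR adjusted p = 0.0461). None of the 3 overlapped. In the Tfap2d-positive nuclei alone their log2 changes were -0.58, 0.79 and 0.53. Pspc1 and Cnot1 were at 0.03 and -0.11 in all nuclei of the 3 clusters.

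Whether the genotype effect in Tfap2d-positive nuclei differed from that in other excitatory nuclei was tested as an interaction over the 24 sums. Of 12790 genes, 0 were called (0%) by edgeR, with 640 at an unadjusted p under 0.05, and DESeq2 called 0, with 229. The smallest p belonged to St18, Mbp, Rxfp1, Kcnab1 and Maml2, with an edgeR adjusted p of 0.34 for the first 4 and 0.484 for Maml2. Kcnab1 was at 22.1 to 48.9 CPM in 4 WT animals and 67.8 to 150 CPM in 6 Het animals, and the 2 WT animals with fewer than 10 Tfap2d-positive nuclei did not exceed 56.9 CPM. St18 and Mbp, an oligodendrocyte factor and a myelin protein, rested on 1 nucleus of WT male 3 with 13 St18 and 40 Mbp UMIs, against 28.3 Mbp UMIs in all other Tfap2d-positive nuclei together. The interaction of genotype with sex gave 0 of 1990 genes called (0%), with 94 at an unadjusted p under 0.05, and DESeq2 gave 0, with 29.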

How the data were processed

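Nuclei from frozen P21 cortex were fixed and barcoded with a Scale Biosciences kit, in a library preparation of this age alone. The deposited values are expected counts per gene and nucleus, which the authors made with ScaleRna on mm10 without normalization, and 92.6% of entries were whole numbers. The study's methods removed multiplets with DoubletFinder and nuclei above an upper UMI limit after this step. The deposited matrices still hold nuclei above that limit, and no doublets were removed here, with Scrublet scores as an alternative. The study states more P21 nuclei after its filters than the matrices used here hold barcodes, which was not resolved. The labels also name Seurat 4.3.0 and DESeq2 1.38.3.

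Genes of 55336 features were placed by identifier (55154 matched). Fractional UMIs were kept in the rule, with a tolerance of 0.001 UMI. TDTOMATO was kept out of the sums that were fitted and out of the clustering. It was counted in the UMI totals of nuclei, which set the UMI limit and scale the CPM levels. Excitatory nuclei were clustered with scanpy 1.11.5 and leidenalg 0.10.2 (3000 variable genes, 50 components, 20 neighbours, resolution 2). Leading genes rank by CPM with 5 added. Inhibitory nuclei had at least 2 Gad1 and Gad2 UMIs and no transporter UMI, and glial nuclei at least 5 marker UMIs.

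Sums per animal were rounded and tested with edgeR 4.0.16 (TMM, filterByExpr, robust quasi-likelihood, Benjamini-Hochberg adjusted p). The SE of a log2 difference was derived from the F statistic of this test, as the absolute difference divided by the square root of F. It is not the spread over animals. DESeq2 1.42.0 was an alternative. TMM factors came from genes worth at least 2 counts in the smallest sum where Tfap2d-positive sums met far larger sums in a fit. This was a change from the planned TMM over all filtered genes, made after tests on simulated data. The simulated tests that were kept used the changed factors alone, so a shift under the planned factors is not shown. The planned factors are an alternative. Shares were compared by exact permutation over animals. Named genes were those in the lists that were called, the 20 highest and 10 lowest called genes seen in at least 20% of Tfap2d-positive or other excitatory nuclei, the 5 smallest p per direction for genotype and the 5 smallest p of the interaction. Within clusters, genes with the 8 smallest p per direction were listed. Members and lists were chosen with earlier results of these data known. Replicates are separate animals.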

Additional observations from a re-analysis of the deposited data

Results flagged for a closer look

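Of 39 groups tested, 4 had an animal far from the others. All 4 were genes in the 4 WT animals with at least 10 Tfap2d-positive nuclei. The 39 also include genes in Het animals, and shares, Tfap2d levels and depths in 6 WT or 6 Het animals. The rate among the WT gene groups alone is therefore higher. Chance flags about 1 in 20 groups. St18 was at 90.9 CPM in WT male 3 against 0 to 10.3 CPM in the others, and Mbp was at 280 CPM in the same animal against 29.4 to 51.4 CPM. Rxfp1, a relaxin receptor, was at 132 CPM in WT female 3 against 0 to 21.9 CPM. Myt1l was at 1195 CPM in WT female 2 against 846 to 874 CPM. WT male 1 and WT female 1, which had fewer than 10 such nuclei, were at 1194 and 1034 CPM of Myt1l. The nucleus of WT male 3 with 40 Mbp UMIs also held 22 Mobp and 2 Tfap2d UMIs, lay in cluster 45 and was among the highest 5% of Scrublet scores of its animal.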

How the results depend on the processing

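Of 423 genes called between Tfap2d-positive and other excitatory nuclei, DESeq2 called 307 genes (290 shared) and RLE factors gave 414. TMM over all filtered genes gave 516, of which 171 were higher and 345 lower in place of 261 and 162, since it moved the median log2 difference of all genes from 0.04 to -0.21. Without a filter on low counts 368 were called. Leaving out 1 animal gave 361 to 440. The counts for nuclei with 1 Tfap2d UMI (213) and within clusters 14, 11 and 22 (76, 36 and 0) come from fewer or other nuclei, and Ntng1 turned to 0.0352 in the former. Of 65 named genes, 59 kept their call with TMM over all filtered genes, 58 without WT male 3, 55 at 3 or more Tfap2d UMIs, 50 at 1 or more and 40 in the nuclei with 1 UMI, where 24 lost it. At a limit of 6000 UMIs 51 of 60 kept it.

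The difference in share between genotypes, -0.0232 points, turned to 0.00565 with all nuclei as denominator, 0.0862 at 3 or more Tfap2d UMIs, 0.0881 at 1 or more, 0.0723 at a limit of 6000 UMIs and 0.0115 without the highest Scrublet scores. It ranged from -0.0916 to 0.0421 when 1 animal was left out, the highest without WT female 3. No exact p among these settings was below 0.242.

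For the genotype difference, the count of 0 became 1 (Mbp) without a filter on low counts and 3 in all nuclei of the 3 clusters, where Cnot1 turned to -0.11. Leaving out 1 animal gave 0 to 1, the 1 being Adamtsl1 without WT male 2. Limits of 6000 UMIs and 3 Tfap2d UMIs left too few animals with 10 nuclei, and that comparison could not be fitted. The interaction with population gave 3 genes at 1 or more Tfap2d UMIs and 0 to 5 when 1 animal was left out, the 5 without WT female 2 and 4 without WT female 3. At a limit of 6000 UMIs Mbp turned to 8.17 and Rxfp1 to -0.0687. The interaction with sex gave 3 without a filter and 0 to 3 when 1 animal was left out, the 3 without Het female 3. The cause of these changes was not tested. With all 12 animals in the genotype fit, or 10 in the interaction, 0 genes were called. These settings, TMM over all filtered genes, the 3 clusters and the nuclei with 1 Tfap2d UMI were chosen after seeing the data.

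Same-numbered animals of 1 sex did not all deviate together (correlations from -0.10 to 0.11 in Tfap2d-positive nuclei and from -0.18 to 0.20 in other excitatory nuclei, where 3 of 6 pairs were above 0.1), so the numbers were not taken as pairs. With the replicate block the genotype difference gave 1 call (Zfp804b), and the share differed by -0.0232 points with 3 of 6 pairs higher in Het (exact sign-flip p = 0.8125).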
